A study of Homo sapiens with 6 samples.

Results

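Histone genes are described here in BaF3-T315I cells exposed to I13. The members are the protein-coding genes of the deposited table whose symbol begins with Hist1h to Hist4h, H1f, H2af or H3f3, which gave 53 of the 22413 genes listed. Of these, 44 carry a Hist symbol, given to replication-dependent genes that mostly lie in clusters, and are called clustered genes here, and 9 are variant genes. BaF3-T315I is a murine pro-B line, dependent on interleukin 3 before transfection, that was stably transfected with BCR-ABL carrying the T315I mutation, which confers resistance to imatinib. Both groups carry this transgene. There were 3 control samples, with no time in their labels, and 3 samples to which I13 was added at 1.1 µM. The exposure lasted 48 h. I13 is an indole-3-butyric acid derivative that inhibits histone deacetylases, the enzymes that remove acetyl groups from histone tails. The labels do not say whether the replicates came from separate cultures, so p-values measure the spread between these samples, which may be technical. The labels name a human organism, whereas the genes listed are mouse genes.

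Histones are the proteins around which DNA is wound. A nucleosome core holds H2A, H2B, H3 and H4, and H1 binds the linker DNA between cores. The clustered genes are transcribed mainly in S phase, and most of their mRNAs end in a stem-loop in place of a poly(A) tail, which the stem-loop binding protein Slbp recognises. Most variant genes are expressed throughout the cell cycle as polyadenylated mRNAs, and products of several are placed into chromatin by dedicated chaperones outside replication. The libraries were prepared with a kit for mRNA, which selects RNA by its poly(A) tail, and such kits recover few transcripts that end in a stem-loop.

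Expression was deposited as FPKM, in which a gene's fragments are divided by gene length and library total. Whole fragments were recovered from these values, with library totals from 16762119 to 17722950, and 1 FPKM on a gene of 1 kilobase was worth 16.8 to 17.7 fragments. The groups were compared with limma on log2(FPKM + 0.1) in the 12163 genes with a mean of at least 0.5 FPKM. Calling a gene took a Benjamini-Hochberg adjusted p under 0.05 together with a log2 fold change of 0.58 or more in either direction. In that fit 4 genes were elevated and 1 was decreased, 0.0329% and 0.00822% of the genes tested, and with the fold change left aside 0.0411% had such an adjusted p. Same-numbered control and I13 samples deviated together across all genes, and with the replicate number as a block 1.36% of the genes were elevated and 0.526% decreased, with 2.99% under the adjusted p alone. Of the marker genes for the line, the receptor genes Csf2rb, Csf2rb2 and Il3ra and the B lineage genes Cd79a and Cd79b were expressed in every sample, whereas Vpreb1, Igll1, Ebf1 and Pax5 were at or near 0 and Kit is not analysed here.

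The variant genes accounted for almost all histone reads, and their levels differed widely. H2afz, which encodes the H2A.Z that marks nucleosomes beside transcription start sites, held 728, 968 and 811 FPKM in the controls (replicates 1, 2 and 3 in this order, here and throughout) and 783, 849 and 778 FPKM after I13. It held rank 50 of all genes by mean FPKM and 62.2% to 68.8% of the summed FPKM of the variant genes in each sample. H3f3b and H3f3a, a pair of genes for the same replacement H3 protein, were unequal in every sample, with H3f3b between 5.49 and 9.57 times as high as H3f3a per unit of length. The linker histone gene H1f0, rank 426, was the third most abundant variant gene. H2afv, which encodes a close relative of H2A.Z, lay between 26.1 and 30.9 FPKM, and H2afy, which encodes macroH2A, between 23.3 and 27.9 FPKM. H2afx and H2afj were lower. H2afy2, which encodes the other macroH2A, had 13 fragments in all 6 libraries and was not tested. Neighbours in this order overlapped for H2afv, H3f3a and H2afy, whose values could not be ranked.

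**Figure D1:**
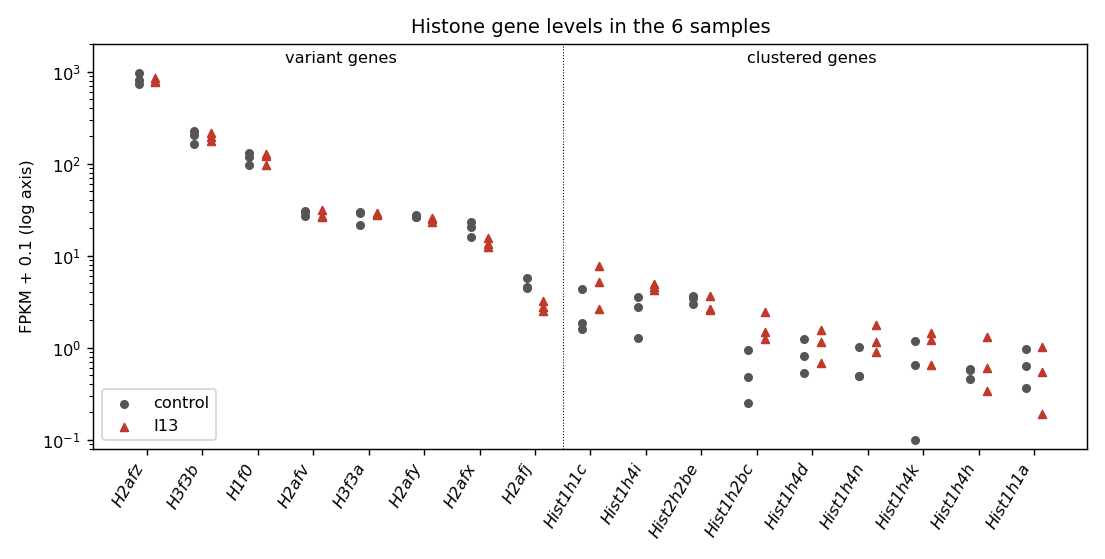
FPKM + 0.1 on a log axis for the 8 variant and 9 clustered genes that were tested, with 1 point for each of the 3 control samples (circles) and 3 I13 samples (triangles). H2afz is the highest, and the clustered genes lie below 10.

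Clustered genes were close to absent from these libraries, and the part of the poly(A) selection in their levels was not tested. Over all 6 libraries the 44 genes collected 2422 fragments, against 278216 for the 9 variant genes, and 10.5 fragments was the median for a clustered gene. In each library 27 to 34 of the 44 genes had at least 1 fragment, and 17 of the 44 had a fragment in every library. Their summed level was 0.00386% to 0.00743% of all FPKM in a sample, and that of the variant genes 0.317% to 0.404%. Of the clustered fragments, 71.0% lay on just 3 genes: Hist1h1c for a linker histone, Hist2h2be for an H2B and Hist1h4i for an H4. The 10 clustered H3 genes together had 46 fragments, and the 3 clustered H2A genes 26. Only 9 clustered genes reached a mean of 0.5 FPKM and were tested, namely Hist1h1a, Hist1h1c, Hist1h2bc, Hist1h4d, Hist1h4h, Hist1h4i, Hist1h4k, Hist1h4n and Hist2h2be. The other 35 had between 1 and 114 fragments each. Gene lengths recovered from the values had a median of 511.5 bases for the clustered and 2175 bases for the variant genes. Clustered genes of a core class (H2A, H2B, H3 or H4) are closely similar in their coding sequence, so some reads match several copies. How such reads were counted is not given in the sources used here. Values of single clustered genes of these classes are uncertain for that reason.

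No histone gene was called in the fit without the block, where 4 of the 17 tested had an unadjusted p below 0.05, against 18.6% of all genes. With the replicate block 1 was called, H2afj. The variant genes H2afj and H2afx had an adjusted p below 0.05 in the fits with the block only, in the lower direction. Among the clustered genes, and with all samples, Hist1h1c and Hist1h2bc reached it only with voom and the block, in the higher direction. The other variant genes, which include the most abundant ones, had log2 fold changes between -0.12 and 0.10. Among the 17 tested genes, control and I13 values were fully separated in 3 variant genes, all lower after I13, and in 2 clustered genes, both higher. Over all genes tested this held for 15.4% in the lower and 9.82% in the higher direction. Of the 2 clustered genes, Hist1h2bc passed the filter of 0.5 FPKM only through its I13 values. Its separation and its adjusted p are therefore no independent evidence of a rise.

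H2afj (ENSMUSG00000060032) encodes H2A.J, an H2A variant that is known to accumulate in senescent cells. Its level was 4.35, 5.64 and 4.46 FPKM in the controls, and 2.67, 3.13 and 2.43 FPKM after I13. The groups did not overlap, with 467 fragments in the controls and 260 after I13. Mean levels were 4.82 ± 0.714 and 2.74 ± 0.354 FPKM (SD, n = 3 each). The log2 fold change was -0.79 with a standard error of 0.16, and limma gave an adjusted p of 0.109. With the replicate block the adjusted p from limma was 0.0392, so H2afj passed both thresholds, as 0.526% of all genes did in the lower direction. It passed them also with voom on the recovered fragments and the block, as 1.05% of all genes did. It was lower in each same-numbered pair, by log2 differences of -0.68, -0.83 and -0.85. The adjusted p of the blocked fit was 0.0758, 0.305 and 0.0902 from limma without the samples of replicate 1, 2 or 3. Without replicate 1 that fit gave 85 of the 12163 genes tested an adjusted p below 0.05. Without replicate 2 or 3 it gave 0. In bulk RNA, fewer cells that express a gene and less of its RNA per cell cannot be told apart.

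H2afx (ENSMUSG00000049932) encodes H2A.X, the variant that is phosphorylated around DNA double-strand breaks, and its gene gives both stem-loop and polyadenylated transcripts. The control samples held 23.0, 20.2 and 15.8 FPKM, and the I13 samples 15.3, 13.2 and 12.3 FPKM. Control replicate 3 lay close above I13 replicate 1, and the groups did not overlap. The means were 19.7 ± 3.59 and 13.6 ± 1.55 FPKM (SD, n = 3 each). This was a log2 fold change of -0.52 with a standard error of 0.16, and limma's adjusted p was 0.163 without and 0.0472 with the block. H2afx thus lay under the fold change threshold in both fits, while 1.24% of all genes were lower at an adjusted p below 0.05 with the block. The pairs differed by -0.58, -0.61 and -0.37 on the log2 scale. Without the samples of replicate 1, 2 or 3 the adjusted p of the blocked fit from limma was 0.101, 0.311 and 0.0838. Here too, 0 of all genes tested had an adjusted p below 0.05 without replicate 2 or 3.

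H1f0 (ENSMUSG00000096210) encodes the linker histone of resting and differentiated cells, and its gene is a classical one for induction by inhibitors of histone deacetylases. Here it was listed at 131, 119.5 and 96.5 FPKM in the controls and at 122, 127 and 96.2 FPKM after I13. In both groups replicate 3 was the lowest, and the pairs differed by -0.10, 0.09 and -0.01 on the log2 scale. With 14023 fragments in the controls and 13639 after I13, the log2 fold change was -0.01 (95% confidence interval -0.37 to 0.35, limma's adjusted p = 0.987). With the block the interval narrowed to -0.17 to 0.16. Its direction was positive under 3 other scalings, TPM, median-ratio and quantile, by at most 0.02. A rise by the fold change threshold of 0.58 lay outside both intervals.

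**Figure D2:**
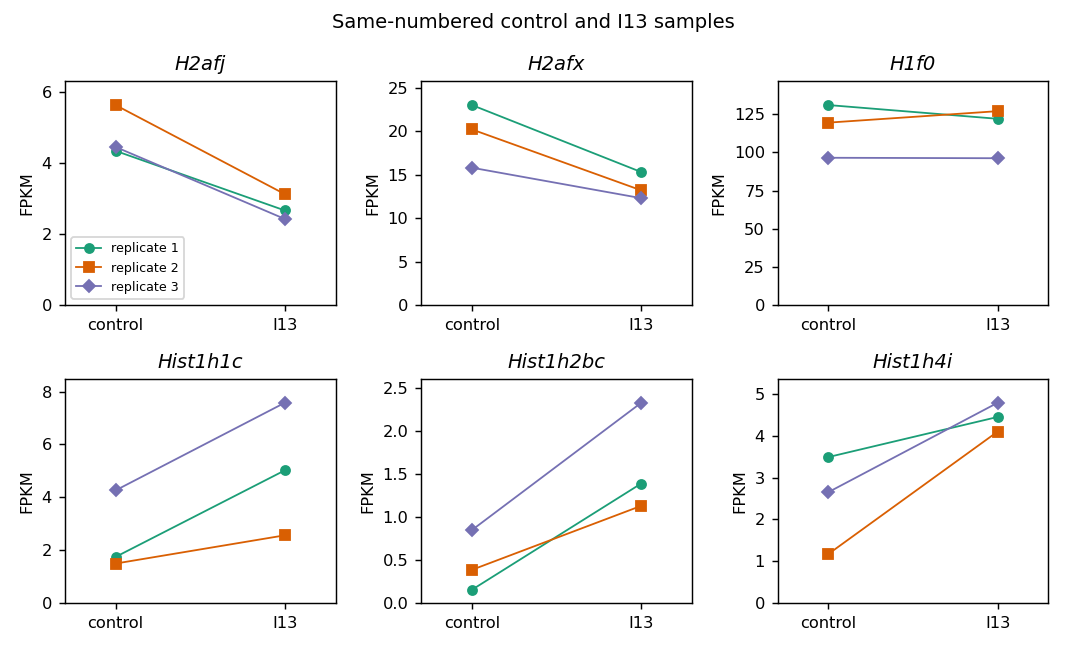
FPKM of 6 histone genes in the control and I13 sample of each replicate number, joined by a line, with each vertical axis starting at 0. H2afj and H2afx are lower in the I13 sample of every pair, H1f0 differs between replicates more than between groups, and Hist1h1c, Hist1h2bc and Hist1h4i are higher in the I13 sample of every pair. Hist1h2bc passed the filter only through its I13 values.

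H3f3b, the major gene for the replacement H3 protein, held 204, 224 and 165 FPKM in the controls and 197, 215 and 177 FPKM after I13. As for H1f0, replicate 3 was the lowest in both groups. The log2 fold change was -0.003 (95% confidence interval -0.32 to 0.31 from limma) and became positive, at no more than 0.03, with TPM and median-ratio scaling. H3f3a was at 21.3, 28.8 and 30.1 FPKM in the controls and at 27.9, 28.6 and 28.8 FPKM after I13. Control replicate 1 was well below the other 5 samples, which lay close together. Its log2 fold change was 0.10 (95% confidence interval -0.23 to 0.43) and turned to -0.05 without control replicate 1. Processed copies of H3f3a, which match its coding sequence closely, were also listed, H3f3a-ps1 at 7.57 to 10.2 FPKM, H3f3a-ps2 at 4.39 to 8.76 FPKM and H3f3c at 6.62 to 9.73 FPKM. Whether reads were shared between H3f3a and these copies was not tested, and the level of H3f3a is uncertain to that extent.

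Neither gene for an H2A.Z protein passed a threshold. The means of H2afz were 836 ± 122 and 803 ± 40.0 FPKM (SD, n = 3 each), with a log2 fold change of -0.05 (95% confidence interval -0.33 to 0.23) that became 0.04 with quantile normalization. For H2afv the log2 fold change was -0.06 (95% confidence interval -0.31 to 0.19). H2afy was at 27.9, 26.4 and 26.0 FPKM in the controls and at 25.2, 25.3 and 23.3 FPKM after I13. The groups of H2afy did not overlap, though the difference was small, with a log2 fold change of -0.12 (standard error 0.08), and limma's adjusted p was 0.474 without the block and 0.306 with it. Cenpa, the centromeric H3 variant, which the naming rule does not cover, lay between 19.2 and 23.5 FPKM with a log2 fold change of -0.02 (limma's adjusted p = 0.953).

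**Figure D3:**
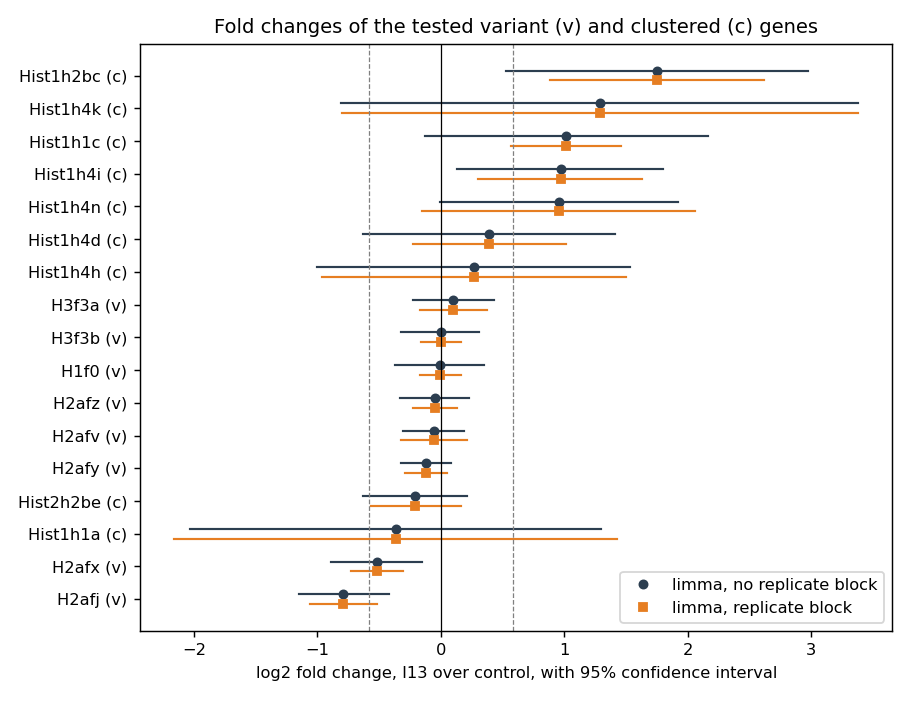
Log2 fold change of I13 over control for the 17 tested histone genes, with 95% confidence intervals from limma without (circles) and with (squares) the replicate block. Dashed lines mark the threshold of 0.58. The intervals of the abundant variant genes are narrow and include 0, those of H2afj and H2afx lie below 0, and those of the clustered genes are wide, with Hist1h2bc and Hist1h4i above 0 in both fits and Hist1h1c with the block. Hist1h2bc was tested only through its I13 values.

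Among the clustered genes, Hist1h1c (ENSMUSG00000036181) encodes a somatic linker histone of the H1 class. It held 1.74, 1.49 and 4.26 FPKM in the controls and 5.02, 2.56 and 7.58 FPKM after I13. The groups overlapped, since control replicate 3 exceeded I13 replicate 2, and replicate 3 was the highest in both groups. Within the pairs the I13 sample was higher by 1.48, 0.74 and 0.82 on the log2 scale. The log2 fold change was 1.01 (standard error 0.49) on 206 fragments in the controls and 412 after I13. Its adjusted p from limma was 0.313 without the block and 0.0508 with it. With voom on the recovered fragments and the block, a fit that gave 12.4% of all genes an adjusted p below 0.05, it was 0.0167, and without the samples of replicate 2 it rose to 0.203.

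Hist1h2bc (ENSMUSG00000018102) encodes an H2B. The controls held 0.153, 0.385 and 0.848 FPKM, and the I13 samples 1.39, 1.13 and 2.33 FPKM. The groups did not overlap, but they rested on 18 fragments in the controls and 62 after I13. The control mean of 0.462 FPKM lay below the filter of 0.5 and the I13 mean was 1.62. Hist1h2bc was therefore tested only through its I13 values, and its separation and adjusted p are no independent evidence of a rise. The log2 fold change was 1.75 (standard error 0.52), and limma's adjusted p was 0.159 without the block and 0.0598 with it. With voom and the block the adjusted p from limma was 0.0386, and it was 0.0739 and 0.240 without the samples of replicate 1 or 2. In that fit 3.08% of all genes were elevated, and Hist1h1c and Hist1h2bc were the clustered genes among them. On the scale with a pseudocount of 1 the log2 fold change of Hist1h2bc was 0.84.

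Hist1h4i (ENSMUSG00000060639) encodes an H4. It was at 3.49, 1.17 and 2.65 FPKM in the controls and at 4.45, 4.10 and 4.79 FPKM after I13. The I13 samples lay close together, above all controls, while control replicate 2 was well below the other 2 controls. The log2 fold change was 0.97 (standard error 0.36), and limma's adjusted p was 0.218 without the block and 0.0965 with it. With voom and the block limma's adjusted p was 0.0892 for Hist1h4i, and it was 0.0192 without the samples of replicate 1, 0.395 without those of replicate 2 and 0.128 without those of replicate 3. Without control replicate 2 alone the log2 fold change was 0.53. Hist2h2be, with 840 fragments the clustered gene with the most reads, went the other way. It held 3.40, 2.86 and 3.53 FPKM in the controls and 3.55, 2.46 and 2.51 FPKM after I13, with a log2 fold change of -0.21 (95% confidence interval -0.63 to 0.21). The remaining 5 tested genes had 25 to 39 fragments each in all libraries. Hist1h4k had a log2 fold change of 1.29 with a 95% confidence interval from -0.81 to 3.38, with control replicate 3 listed at 0. The log2 fold changes of Hist1h4n, Hist1h4d, Hist1h4h and Hist1h1a were 0.96, 0.39, 0.27 and -0.36, and all their intervals included 0. Hist1h4h, with means of 0.439 FPKM in the controls and 0.651 FPKM after I13, passed the filter of 0.5 only through its I13 values. Hist1h1a, with means of 0.558 and 0.488 FPKM, passed it only through its control values. The directions of Hist1h4h and Hist1h1a are thus not independent of the filter.

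The 9 clustered genes tested had a median log2 fold change of 0.96, beside -0.05 for the 8 variant genes and -0.005 for all genes tested. A low gene passes the filter more easily if it is high in 1 group, and over all 44 clustered genes the median was 0.24. The median of the 9 was 0.53 without control replicate 2, 0.33 without control replicate 3 and 0.41 with a pseudocount of 1. Over the 12163 genes tested, 5989 had a positive and 6174 a negative log2 fold change, and direction in fragments was not counted for them. Counted in fragments, 27 of the 44 clustered genes had more in the I13 group, 12 had fewer and 5 had equal numbers. The median clustered gene had only 10.5 fragments in all libraries. Among the 35 untested genes these numbers were 20, 10 and 5, on 226 fragments in the controls and 233 after I13. Of the untested genes with the highest means, Hist1h1e had 20 fragments in the controls and 12 after I13, Hist1h2bk 7 and 12, and Hist1h1d 17 and 13.

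**Figure D4:**
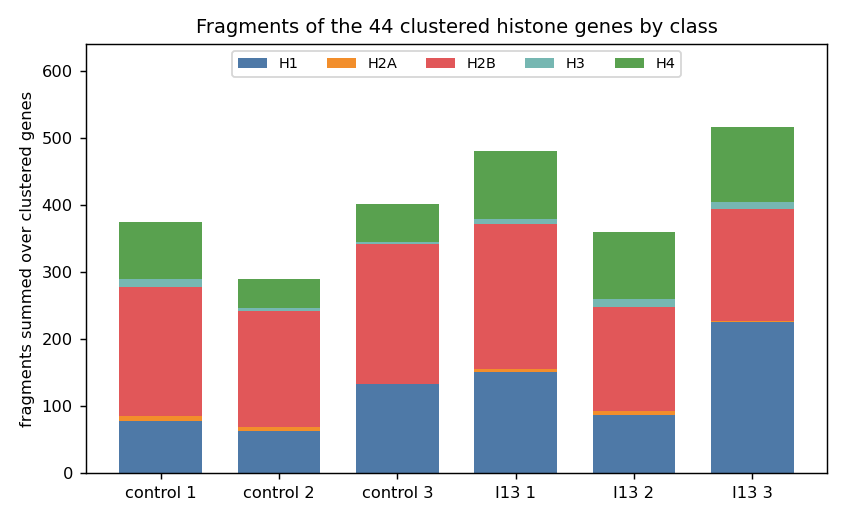
Fragments summed over the 44 clustered histone genes in each sample, stacked by class. The totals are 374, 290 and 401 in the controls and 481, 360 and 516 after I13, and H2A and H3 are barely visible.

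A sum over a class counts together reads assigned to different copies of that class, but not reads left out for matching several copies. The 12 clustered H4 genes, which encode the same protein, held 85, 44 and 56 fragments in the controls and 102, 101 and 112 after I13. In summed FPKM these were 7.90, 4.26 and 4.72 against 9.45, 10.5 and 10.5, and 11 of the 12 genes had more fragments in the I13 group. The groups did not overlap in either measure. Hist1h4i alone held 45, 15 and 34 of these fragments in the controls and 57, 50 and 61 after I13. Only 5 of the 12 genes were tested, and the untested ones had 6 to 27 fragments each in all libraries. Some of the 11 differed by few fragments, such as Hist1h4f with 5 in the controls and 7 after I13 and Hist2h4 with 12 and 15. The H4 genes share sequence, so their directions are not independent of each other. How often sums over other gene sets separate the groups, or their members share a direction in fragments, was not counted. The clustered H2B genes held 193, 174 and 209 fragments in the controls and 217, 156 and 167 after I13, which overlapped. Their summed FPKM was 5.48, 5.45 and 5.67 against 7.05, 6.43 and 6.44. Of these sums Hist1h2bc held 0.153, 0.385 and 0.848 FPKM in the controls and 1.39, 1.13 and 2.33 FPKM after I13. Without Hist1h2bc the H2B sums overlapped. The clustered H1 genes held 77, 63 and 132 against 151, 86 and 225 fragments, and 4 of the 5 genes had fewer fragments after I13, so that Hist1h1c alone carried the larger sum. The total of all clustered genes overlapped between the groups in fragments, with 401 in control replicate 3 and 360 in I13 replicate 2. In summed FPKM, which weights short genes more, it did not, at 19.3, 13.6 and 16.1 against 23.5, 23.0 and 26.9. That separation lay in the 9 tested genes, at 13.3, 8.46 and 12.9 against 17.5, 15.8 and 21.6. The filter favours genes that are high in 1 group. The 35 untested genes overlapped, at 5.99, 5.11 and 3.28 against 5.97, 7.27 and 5.27. The variant genes summed to 1170.4, 1419 and 1179.6 FPKM in the controls and 1199, 1292 and 1144 FPKM after I13.

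Genes that supply and place histones were examined as lists. The list for histone mRNA processing held 14 genes, of which 13 were tested. By limma 0 had an adjusted p below 0.05 without or with the block, and 1 did with voom and the block, where 12.4% of all genes did. At the unadjusted level 2 were lower at a p below 0.05 and 0 higher, against 10.8% and 7.79% of all genes. The median log2 fold change was -0.063. Slbp, which binds the stem-loop, was at 13.7, 20.8 and 17.3 FPKM in the controls and 19.2, 21.3 and 16.2 FPKM after I13, a log2 fold change of 0.14 (limma's adjusted p = 0.698). Npat, the coactivator of the clustered genes, had a log2 fold change of 0.26 (limma's adjusted p = 0.449). Sympk, a scaffold of the cleavage complex at mRNA ends, was picked after its values were seen, since its adjusted p was the lowest of the list, and had a log2 fold change of -0.35 (limma's adjusted p = 0.115, and 0.0599 under the block).

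Of 24 genes for histone chaperones and exchange, 23 were tested, and 0 had an adjusted p below 0.05 by limma in either of these fits, while 5 did with voom and the block, against 12.4% of all genes. At an unadjusted p below 0.05 in limma, 2 were higher and 4 lower, against 7.79% and 10.8% of all genes. The median log2 fold change was -0.074. Vps72, a subunit that binds H2A.Z in its exchange complexes and was likewise picked after its values were seen, had a log2 fold change of -0.44 (limma's adjusted p = 0.109, and 0.0578 under the block). Of the genes for placing the replacement H3, Atrx had 0.52 (limma's adjusted p = 0.132), Daxx -0.13 and Hira -0.09. Vps72 and Atrx were among the 5 genes under voom and the block, with adjusted p of 0.0167 and 0.0236 from limma. Of the chaperones that act at replication forks, Chaf1a had a log2 fold change of 0.03, Asf1b of 0.12 and Chaf1b of -0.21. Nasp, which carries soluble H3 and H4, had -0.04. Pcna, the sliding clamp of the replication fork, was at 143 to 184 FPKM in the controls and 165 to 182 FPKM after I13, with a log2 fold change of 0.04. All 24 S phase genes were tested, with a median log2 fold change of 0.001. By limma 0 had an adjusted p below 0.05 in either fit, and 2 did with voom and the block, beside 12.4% of all genes. These 2, named after their values were seen, were lower. Cdc45 was at -0.38 and Mcm5 at -0.26, with adjusted p of 0.0212 and 0.0444 from limma. At an unadjusted p below 0.05 in limma 2 were higher and 2 lower, against 7.79% and 10.8% of all genes. The part of the share of cells in S phase in the histone values was not tested.

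**Figure D5:**
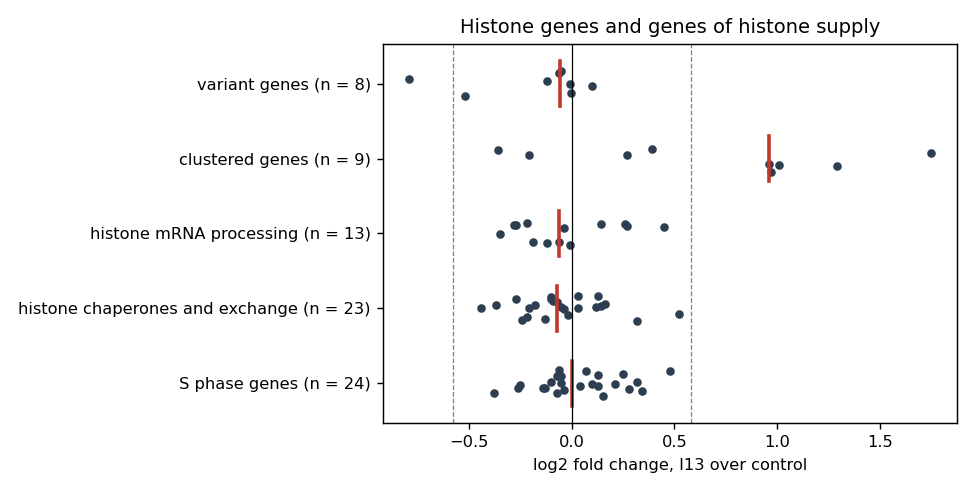
Log2 fold change of I13 over control for each tested gene of 5 groups (points, spread vertically for visibility), with the median of the group as a red bar and dashed lines at 0.58 in either direction. The clustered histone genes spread from -0.36 to 1.75, and no gene of the lower 3 groups passes a dashed line.

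Markers of the line and of other cells were read beside these values. Of the genes for the line, Csf2rb and Csf2rb2 were elevated in the fit with the block, by log2 fold changes of 0.83 and 1.02. The T cell genes Cd3d, Cd3e and Cd3g had 3 to 23 fragments each in all libraries, whereas Lat was at 65.8 to 122 FPKM, and the fibroblast gene Col1a1 had 46 fragments. C1qa, Col1a2, Dcn and Pdgfra are not analysed here. Of 4 macrophage genes listed, Csf1r and Mertk were near 0, while Adgre1 and Lyz2 had log2 fold changes of 1.05 and 0.76, Adgre1 with an adjusted p from limma of 0.180 without and 0.0308 with the block. Of the erythroid genes, Alas2 and Hbb-bs were at 0.777 FPKM or less, and Hba-a1 had a log2 fold change of 2.40 (limma's adjusted p = 0.116, and 0.0384 under the block) on 179 fragments. Hbb-bt rested almost entirely on I13 replicate 2. The part of these changes in the histone values was not tested.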

How the data were processed

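mRNA of BaF3-T315I cells was sequenced in 3 control and 3 I13 samples from stranded libraries. The authors deposited FPKM values, 1 column per sample, with 0 columns left without a sample. The submitters' processing notes name Trimmomatic, HISAT2, Cufflinks and HTSeq and the build hg38, whereas the gene identifiers are mouse. They were read as mouse genes here. The annotation is not given in the sources used here. Groups and replicate numbers came from the labels.

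Whole fragments and gene lengths were recovered as whole numbers that give all 6 values of a gene, within 0.002 fragments, for all 22413 genes. For genes with very few fragments a multiple of both would do as well. The comparison used limma 3.58.1 in R 4.3.3 with eBayes and a trend on log2(FPKM + 0.1), with Benjamini-Hochberg adjustment over 12163 genes. A fold change on this scale understates that of low genes. It was tested on simulated data with known changes.

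Correlations of same-numbered samples' deviations from their group means were 0.145, 0.301 and 0.219 for replicates 1, 2 and 3, all above 0.1, against -0.258 to 0.0503 for unlike numbers. Equal numbers were therefore treated as pairs. The labels do not say what a number shares.

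The genes named are the tested variant genes, the 12 clustered genes with the highest mean, the 3 tested clustered genes with the highest and the 3 with the lowest fold change, any member or list gene with an adjusted p below 0.05 in either fit, and a few genes of the lists. H2afy2, Cenpa and the processed copies are named besides, and the marker genes were set as lists. Members and lists were chosen with earlier results of these data known. Python 3.11.15 and matplotlib 3.10.9 drew the figures. Alternatives were other pseudocounts (0.01 and 1), filters, scalings, eBayes without a trend, the replicate block, voom on the fragments, and leaving out each sample. Fits with the block that leave out each pair were chosen after seeing the data.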

Additional observations from a re-analysis of the deposited data

How the results depend on the processing

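With the replicate block, which pairs same-numbered samples, 166 genes were elevated and 64 decreased, against 4 and 1 without it, and 1 variant gene was called, H2afj (-0.79). With voom and the block these were 375 and 128, with 2 clustered genes elevated, Hist1h1c (1.02) and Hist1h2bc (1.79), and 1 variant gene decreased, H2afj (-0.81). Of these, Hist1h2bc passed the filter only through its I13 values. Over all genes 2 were elevated and 0 decreased with a pseudocount of 0.01, median-ratio scaling or quantile normalization, and 3 were decreased without a filter or without the trend. The median log2 fold change of the clustered genes moved to 0.41 with a pseudocount of 1 and 0.24 without a filter, where 44 genes entered. When 1 sample was left out, 0 genes were elevated and 0 decreased, the clustered median ran from 0.33 to 0.95 and the variant median from -0.13 to -0.02.

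Leaving out both samples of 1 replicate number, chosen after seeing the data, gave with the block 0 to 78 elevated and 0 to 5 decreased genes, and with voom and the block 9, 407 or 577 elevated and 2, 129 or 226 decreased. With voom, 0 to 2 clustered genes were then elevated and 0 to 2 variant genes decreased. Clustered medians were 0.40 to 0.78 with the block, at 0.52 without replicate 2, and 0.40 to 0.90 with voom, at 0.49 without replicate 2. Fewer samples entered these fits.

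Changes of sign touched only genes near 0 or with few fragments. H1f0 was at 0.02 with TPM or quantile normalization and at 0.01 with median-ratio scaling, H3f3b at 0.03 with TPM and 0.01 with median ratios, and H2afz at 0.04 with quantiles. With 1 sample left out, H1f0 ran from -0.13 to 0.12, H3f3b from -0.13 to 0.09, H2afz from -0.14 to 0.06, H3f3a from -0.05 to 0.20, Hist1h1a from -0.93 to 0.30 and Hist1h4h from -0.24 to 0.73. With pairs left out, H2afv reached 0.01, H3f3a -0.04, Hist1h1a 0.64 (0.72 with voom) and Hist1h4h -0.18 (-0.17 with voom). The cause was not tested.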
